A study of Rattus norvegicus with 9 samples.

Results

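The platelet-derived growth factor (PDGF) family was followed in cultured rat fibroblasts (Fb) through the 7 genes of the deposited matrices that carry the symbols of its ligands and receptors, out of 32883 genes. These are *Pdgfa*, *Pdgfb*, *Pdgfc* and *Pdgfd* for the ligands, *Pdgfra* and *Pdgfrb* for the receptors, and *Pdgfrl* for a receptor-like protein. RNA was sequenced from 3 samples each of Fb-Epn, grown from the epineurium (the outer sheath) of the sciatic nerve, Fb-Par, grown from the parenchyma inside that sheath, and Fb-Skn, grown from abdominal skin. The study asked how these fibroblasts differ in their transcripts. It had compared their effect on neurite outgrowth, both with neurons seeded on them and with neurons kept apart from them. All samples came from wild-type (WT) male Lewis rats of 10 weeks, and the cells were grown in medium with fetal bovine serum and passaged 1 time, with no treatment that set the types apart. Fb-Epn and Fb-Par were prepared from the nerves of 2 rats and Fb-Skn from the skin of 1 other rat. The 3 samples of a type can therefore not be 3 separate animals, and all p-values measure only the spread between these samples, which may be technical. Tissue, rat and body site cannot be told apart where a nerve-derived type is compared with Fb-Skn.

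PDGFs are secreted dimers that signal through receptor tyrosine kinases, whose subunits pair up on ligand binding and recruit kinases, adaptors and phosphatases. PDGF-A and PDGF-C act mainly through the alpha receptor, PDGF-D mainly through the beta receptor, and PDGF-B binds both. PDGF-C and PDGF-D are released as latent proteins that extracellular proteases must cleave. The alpha receptor is widely used as a marker of fibroblasts, the beta receptor is shared by fibroblasts and the mural cells of vessels, and PDGF-B is known as a product of endothelial cells and Schwann cells.

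Total counts per library ranged from 10084584 to 12310506, and the common biological coefficient of variation within a type was 8.25%. Levels below are in TPM, the authors' counts scaled by gene length and library, in which genes can be compared with each other. Differences between types are log2 fold changes from edgeR's quasi-likelihood test on the counts, and a gene is said to be called where the adjusted p was under 0.01. The name DE genes is kept for called genes that also changed more than 2 log2 units up or down. The fibroblast label was checked with 7 markers, of which 6 were found by symbol and all had at least 10 counts in every library. Their summed TPM ranged from 30862 to 31083 for Fb-Epn, from 25692 to 26735 for Fb-Par and from 29559 to 30655 for Fb-Skn. Most of each sum came from *Col1a1* (mean 15869, 13724 and 21077 TPM in the order Fb-Epn, Fb-Par, Fb-Skn) and *Col3a1* (13024, 8348 and 4469). The single markers did not share an order. *Thy1* had 710.2, 1006 and 3095 TPM, *Dcn* 1105, 2563 and 1336, *Lum* 239.4, 415.5 and 186.0, and *Fbln1* 38.1, 7.69 and 34.2. By immunolabelling, the study found type I collagen and Thy1 in all cells, with negligible S100b (Schwann cells) and Cd31 (endothelial cells). That result concerns protein. Among the transcripts, markers of other cells were present as well. The 7 Schwann cell markers summed to 185.8 to 197.8 TPM for Fb-Epn, 255.3 to 261.7 for Fb-Par and 10.46 to 13.2 for Fb-Skn, where *Sox10*, *Erbb3* and *Cdh19* had 0 counts. The 6 macrophage markers summed to 188.1 to 203.9, 41.0 to 44.5 and 8.97 to 11.1 TPM in the same order. Most of each macrophage sum was *Cd68* (153.3, 27.8 and 7.87 TPM). *Cd163* (8.81, 0.0713 and 0.279 TPM) was lowest in Fb-Par, on few reads there and in Fb-Skn. In RNA from a whole culture, fewer cells of a type and less RNA per cell cannot be told apart.

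Of the 7 genes, 5 were in the RefSeq promoter table of the GRCr8 assembly. The 250 bases before the start of *Pdgfa*, *Pdgfb* and *Pdgfra* are shown because these genes are the ligand that differed least between the types, a ligand nearly missing from Fb-Skn and the receptor that was higher in the nerve-derived types. Capitals mark the matches, on either strand, to 5 motifs. These are the GC box as GGGCGG, the CCAAT box by these letters and the TATA box as TATAAA. The others are a broad form of the AP-1 site, TGANTCA with N for any base, and the CArG box by its name. The motifs do not overlap each other in these windows.
Pdgfa promoter, chr12:20759116-20759365, plus strand: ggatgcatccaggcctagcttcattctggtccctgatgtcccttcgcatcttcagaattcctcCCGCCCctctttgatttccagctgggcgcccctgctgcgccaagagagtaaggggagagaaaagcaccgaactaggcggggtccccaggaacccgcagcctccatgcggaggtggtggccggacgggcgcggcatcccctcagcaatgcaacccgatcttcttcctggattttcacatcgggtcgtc
Pdgfb promoter, chr7:113438344-113438593, minus strand: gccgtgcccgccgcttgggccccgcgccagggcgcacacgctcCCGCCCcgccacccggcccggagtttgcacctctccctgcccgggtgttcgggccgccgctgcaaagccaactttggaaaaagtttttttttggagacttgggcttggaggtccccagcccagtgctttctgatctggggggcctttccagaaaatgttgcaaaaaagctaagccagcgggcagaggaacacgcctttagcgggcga
Pdgfra promoter, chr14:33408517-33408766, minus strand: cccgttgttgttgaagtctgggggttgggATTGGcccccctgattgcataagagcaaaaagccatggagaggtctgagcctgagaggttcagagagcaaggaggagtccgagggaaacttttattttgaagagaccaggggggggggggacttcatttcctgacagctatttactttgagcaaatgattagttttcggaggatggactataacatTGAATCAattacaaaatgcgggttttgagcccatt
*Pdgfa* and *Pdgfb* each held 1 GC box, read on the opposite strand and beginning 187 and 207 bases before the start, and *Pdgfd* held 1 at 114 bases. A GC box was found in 30.5% of all 33469 promoters of this length. *Pdgfra* held 1 CCAAT, on the opposite strand at 221 bases, and 1 match to TGANTCA at 35 bases, which 34.0% and 6.34% of all promoters hold. The latter reads TGAATCA, so it matches only the broad form of the AP-1 site. TATAAA (12.9% of promoters) and the CArG box (501 promoters) matched in none of the 5, and *Pdgfc* matched no motif. The *Pdgfb* promoter had a GC content of 63.6% with 19 CG dinucleotides and that of *Pdgfa* had 60.8% with 15, against medians of 51.2% and 5 over all promoters. That of *Pdgfra* lay below these medians, with 47.2% and 4. These matches describe the sequence only.

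All 7 genes passed the expression filter that left 13273 genes to test. *Pdgfb* passed only through the nerve-derived types, so a difference from Fb-Skn was bound to appear for it. Receptor transcripts stood above ligand transcripts in every type. By mean TPM the order in Fb-Epn was *Pdgfra*, *Pdgfrb*, *Pdgfrl*, *Pdgfa*, *Pdgfd*, *Pdgfc* and *Pdgfb*. In Fb-Par it was *Pdgfrb*, *Pdgfrl*, *Pdgfra*, *Pdgfa*, *Pdgfd*, *Pdgfc* and *Pdgfb*. In Fb-Skn it was *Pdgfrb*, *Pdgfrl*, *Pdgfra*, *Pdgfa*, *Pdgfc*, *Pdgfd* and *Pdgfb*. Neighbours in this order whose TPM ranges overlapped were *Pdgfa* and *Pdgfd* in Fb-Par and *Pdgfc* and *Pdgfd* in Fb-Skn, while *Pdgfrb* and *Pdgfrl* in Fb-Epn and *Pdgfrl* and *Pdgfra* in Fb-Par nearly met. *Pdgfrb* ranked 386 among the tested genes in Fb-Par, 633 in Fb-Skn and 1268 in Fb-Epn, and *Pdgfb* ranked 9467, 12895 and 9775 in the same order.

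**Figure D1:**
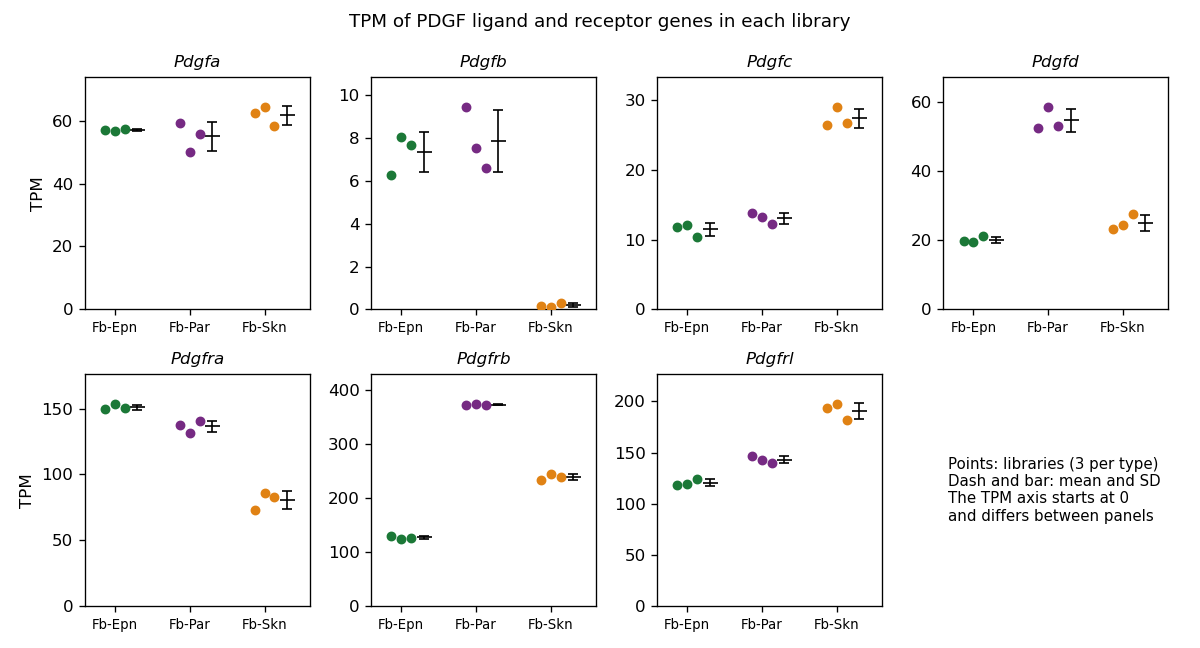
TPM (vertical axis, from 0 in each panel) of the 7 PDGF ligand and receptor genes in the 3 libraries of each type, with points for libraries and a dash with a bar for the mean and SD (n = 3). *Pdgfb* lies between 0.0962 and 0.286 TPM in Fb-Skn and above 6 TPM elsewhere, *Pdgfd* and *Pdgfrb* peak in Fb-Par, *Pdgfc* and *Pdgfrl* peak in Fb-Skn, and *Pdgfa* stays between 50.1 and 64.2 TPM in all 9 libraries.

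*Pdgfa* had the highest mean TPM of the ligand transcripts in each type and differed little between the types. In Fb-Par its range overlapped that of *Pdgfd*, which was the higher of the pair in Fb-Par 2 (58.4 against 50.1 TPM). *Pdgfa* (ENSRNOG00000001312; rn6 chromosome 12, 17734133 to 17755285) had 57.1, 56.6 and 57.2 TPM in the Fb-Epn libraries, 59.2, 50.1 and 55.9 in Fb-Par, and 62.6, 64.2 and 58.4 in Fb-Skn. The Fb-Epn libraries lay just under the lowest Fb-Skn library, while the Fb-Par range overlapped both others. The log2 fold change was -0.26 (SE 0.067) in Fb-Epn against Fb-Skn (adjusted p = 0.0047, edgeR) and -0.31 (SE 0.067) in Fb-Par against Fb-Skn (adjusted p = 0.0011, edgeR). Both calls were narrow. The first was lost (adjusted p from 0.015 to 0.022, edgeR) when any of the 3 Fb-Epn libraries, Fb-Skn 1 or Fb-Skn 2 was left out, and both were lost with limma on log2(TPM + 1), with values of -0.11 (adjusted p = 0.21) and -0.16 (adjusted p = 0.078). On that TPM scale the median of all tested genes lay 0.129 log2 units higher for Fb-Epn and 0.135 higher for Fb-Par, each against Fb-Skn, than in the count model. Between Fb-Epn and Fb-Par the difference in *Pdgfa* was 0.058 (SE 0.067), which did not pass the test (adjusted p = 0.51, edgeR).

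*Pdgfb*, the ligand of both receptors, had low levels in the nerve-derived types and a few reads in Fb-Skn. *Pdgfb* (ENSRNOG00000017197; rn6 chromosome 7, 121214628 to 121232741) had 6.29, 8.06 and 7.66 TPM for Fb-Epn, 9.43, 7.53 and 6.60 for Fb-Par, and 0.168, 0.0962 and 0.286 for Fb-Skn. All 6 nerve-derived libraries lay far above the 3 skin libraries, and Fb-Epn and Fb-Par overlapped. In counts, the nerve-derived libraries held 69 to 113 reads each and the Fb-Skn libraries 2, 1 and 3. The log2 fold change against Fb-Skn was 5.11 (SE 0.33) in Fb-Epn and 5.20 (SE 0.33) in Fb-Par, comparisons that share the Fb-Skn libraries. Both are given as a description with no test, since *Pdgfb* passed the filter on low counts only through the nerve-derived libraries and so had to differ. As a ratio of summed counts per depth, *Pdgfb* was 36.5 times as high in Fb-Epn as in Fb-Skn (95% interval 16.5 to 100.4) and 38.9 times as high in Fb-Par (17.6 to 107.0), where the intervals cover counting error only. Fb-Epn and Fb-Par differed by -0.089 (SE 0.19), not called (adjusted p = 0.74, edgeR). The summed markers of Schwann cells, endothelial cells and macrophages were likewise lower in Fb-Skn. The Schwann cell and macrophage sums are given above, and both also differed between Fb-Epn and Fb-Par, in opposite directions. The 5 of 6 endothelial markers that were found summed to 10.95 to 11.2 TPM for Fb-Epn, 9.77 to 10.9 for Fb-Par and 1.00 to 1.56 for Fb-Skn. *Cdh5* and *Emcn* were at 0 counts in Fb-Skn. Most of the endothelial sum was *Tek* (8.37, 10.2 and 1.20 TPM in the order Fb-Epn, Fb-Par, Fb-Skn). In Fb-Par the other 4 found, *Cdh5*, *Kdr*, *Vwf* and *Emcn*, had at most 0.131 TPM each. The part of Schwann cells, endothelial cells and macrophages in the *Pdgfb* difference was not tested.

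*Pdgfc*, a latent ligand of the alpha receptor, was highest in Fb-Skn. *Pdgfc* (ENSRNOG00000010695; rn6 chromosome 2, 179952227 to 180128283) had 11.9, 12.1 and 10.4 TPM for Fb-Epn, 13.8, 13.2 and 12.2 for Fb-Par, and 26.4, 28.9 and 26.8 for Fb-Skn. The Fb-Skn libraries lay apart from all others, and the Fb-Par libraries lay just above those of Fb-Epn. *Pdgfc* was 2.63-fold higher in Fb-Skn than Fb-Epn, a log2 fold change of -1.39 for Fb-Epn (SE 0.090, adjusted p = 6.6e-09, edgeR). It was 2.32-fold higher in Fb-Skn than Fb-Par, with -1.22 for Fb-Par (SE 0.089, adjusted p = 2.5e-08, edgeR). The difference of -0.18 (SE 0.094) between Fb-Epn and Fb-Par did not pass (adjusted p = 0.13, edgeR), although the TPM ranges did not overlap. *Pdgfb* and *Pdgfc*, which differ in receptor use, thus had opposite directions in both comparisons with Fb-Skn.

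*Pdgfd*, a latent ligand of the beta receptor, peaked in Fb-Par. *Pdgfd* (ENSRNOG00000029148; rn6 chromosome 8, 4440876 to 4669014) had 19.7, 19.6 and 21.2 TPM for Fb-Epn, 52.4, 58.4 and 53.0 for Fb-Par, and 23.1, 24.4 and 27.4 for Fb-Skn. Every Fb-Par library lay above all the others, and the Fb-Epn libraries lay under those of Fb-Skn without overlap. *Pdgfd* was 1.97-fold higher in Fb-Par than Fb-Skn (log2 fold change 0.98, SE 0.067, adjusted p = 1.3e-08, edgeR) and 2.69-fold higher in Fb-Par than Fb-Epn (-1.43 for Fb-Epn, SE 0.069, adjusted p = 2.6e-10, edgeR). Against Fb-Skn, Fb-Epn was lower by a smaller step of -0.45 (SE 0.072, adjusted p = 1.0e-04, edgeR), and this call was lost with limma on log2(TPM + 1) at -0.29 (adjusted p = 0.012). The *Ddi1* pseudogene on the opposite strand lies over 1849 bases of *Pdgfd* and had 4, 4 and 8 counts summed over the libraries of each type in the order Fb-Epn, Fb-Par, Fb-Skn.

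Summed over the 4 ligands, transcripts reached 95.9 ± 0.842 TPM (SD, n = 3) for Fb-Epn, 130.6 ± 3.74 for Fb-Par and 114.3 ± 2.96 for Fb-Skn. No library of a type overlapped another type, and each exact two-sided permutation test gave p = 0.1, the smallest that 3 against 3 libraries allow and the same after adjustment over 9 comparisons. The composition differed more than the sum. *Pdgfa* made up 59.4% of ligand TPM for Fb-Epn, 42.1% for Fb-Par and 54.0% for Fb-Skn. *Pdgfd* took 41.9% in Fb-Par, against 21.0% in Fb-Epn and 21.9% in Fb-Skn. *Pdgfc* took 23.9% in Fb-Skn, against 11.9% in Fb-Epn and 10.0% in Fb-Par, and *Pdgfb* took 0.162%, 7.64% and 5.996% in the same order. Fb-Par thus had near-equal shares of *Pdgfa* and *Pdgfd*, ligands of different receptors.

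**Figure D2:**
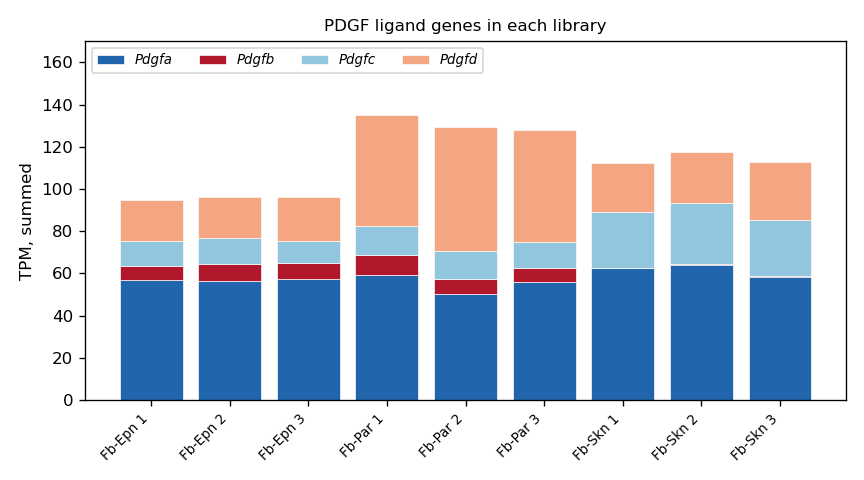
Stacked TPM (vertical axis, from 0) of the 4 PDGF ligand genes in each of the 9 libraries. The sums run from 94.96 to 96.4 for Fb-Epn, from 127.8 to 134.9 for Fb-Par and from 112.3 to 117.7 for Fb-Skn, with a wide *Pdgfd* share in Fb-Par and hardly any *Pdgfb* in Fb-Skn.

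The alpha receptor gene *Pdgfra* was higher in the nerve-derived fibroblasts than in skin fibroblasts. *Pdgfra* (ENSRNOG00000002244; rn6 chromosome 14, 35527927 to 35581031) had 149.4, 153.1 and 150.7 TPM for Fb-Epn, 137.7, 131.8 and 140.2 for Fb-Par, and 72.8, 85.8 and 82.8 for Fb-Skn. The 3 types did not overlap, and the gap to Fb-Skn was the widest. *Pdgfra* was 1.71-fold higher in Fb-Epn than Fb-Skn (log2 fold change 0.77, SE 0.044, adjusted p = 1.9e-09, edgeR) and 1.53-fold higher in Fb-Par than Fb-Skn (0.61, SE 0.044, adjusted p = 2.2e-08, edgeR). Between Fb-Epn and Fb-Par the step was 0.16 (SE 0.043, adjusted p = 0.0081, edgeR), close to the threshold. With the replicate number as a block it was 0.16 with an adjusted p of 0.0104 (edgeR), and leaving out any Fb-Epn or Fb-Par library, or Fb-Skn 3, raised the adjusted p to between 0.0119 and 0.043 (edgeR).

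The beta receptor gene *Pdgfrb* showed another order, with its peak in Fb-Par and its lowest level in Fb-Epn. *Pdgfrb* (ENSRNOG00000018461; rn6 chromosome 18, 56364620 to 56406381) had 131.1, 124.7 and 127.1 TPM for Fb-Epn, 373.6, 373.9 and 372.1 for Fb-Par, and 234.5, 244.6 and 240.2 for Fb-Skn. The types lay far apart from each other relative to the spread within them. *Pdgfrb* was 2.90-fold higher in Fb-Par than Fb-Epn (log2 fold change -1.54 for Fb-Epn, SE 0.027, adjusted p = 3.5e-15, edgeR). Against Fb-Skn it was lower in Fb-Epn by -1.05 (SE 0.027, adjusted p = 2.1e-13, edgeR) and higher in Fb-Par by 0.49 (SE 0.027, adjusted p = 8.9e-10, edgeR). Mural cell markers stand beside these values, since pericytes and smooth muscle cells also carry the beta receptor. Of the 10 markers, *Cspg4* had 8.48, 73.1 and 26.4 TPM in the order Fb-Epn, Fb-Par, Fb-Skn, *Mcam* had 63.4, 241.4 and 137.9 and *Myh11* had 24.6, 163.6 and 124.8, the same order as *Pdgfrb*. *Notch3* (6.35, 72.5 and 1.55 TPM) and *Rgs5* (4.49, 14.9 and 0) peaked in Fb-Par but were lowest in Fb-Skn. *Des* had 1.38, 0.389 and 0.121 TPM, on 13 to 21 counts per library in Fb-Epn, 3 to 6 in Fb-Par and 0 to 2 in Fb-Skn. Since *Des* passed the filter on low counts only through Fb-Epn, its 1.79 above Fb-Par is a description with no test. *Kcnj8* (1.10, 1.22 and 0 TPM) and *Abcc9* (1.26, 1.31 and 0.0182) were not called between Fb-Epn and Fb-Par (-0.14 and -0.042), while *Acta2* (3357, 5051 and 10307) and *Tagln* (5170 for Fb-Epn and 9818 for Fb-Skn) were highest in Fb-Skn. The summed TPM of the 10, most of it from *Acta2* and *Tagln*, ran in yet another order, from 8547 to 8757 for Fb-Epn, 13180 to 13791 for Fb-Par and 20258 to 20539 for Fb-Skn. The part of mural cells in the difference between Fb-Par and Fb-Epn was not tested.

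*Pdgfrl* encodes a receptor-like protein that has no kinase domain. *Pdgfrl* (ENSRNOG00000010832; rn6 chromosome 16, 54386288 to 54450426) had 118.2, 119.0 and 124.6 TPM for Fb-Epn, 146.3, 143.1 and 140.3 for Fb-Par, and 193.4, 197.0 and 182.0 for Fb-Skn. The types rose in that order without overlap, the reverse of the order of *Pdgfra*. *Pdgfrl* was 1.74-fold higher in Fb-Skn than Fb-Epn (log2 fold change -0.80 for Fb-Epn, SE 0.048, adjusted p = 2.6e-09, edgeR) and 1.48-fold higher in Fb-Skn than Fb-Par (-0.56 for Fb-Par, SE 0.047, adjusted p = 1.1e-07, edgeR). Fb-Epn lay under Fb-Par by -0.24 (SE 0.048, adjusted p = 8.4e-04, edgeR). The protein-coding gene AABR07025896.1 overlaps *Pdgfrl* by 273 bases on the opposite strand, with 754, 782 and 1169 summed counts across Fb-Epn, Fb-Par and then Fb-Skn against 2791, 3200 and 4202 for *Pdgfrl*. The libraries were directional, but the strand setting of the counting is not given in the sources used here, so reads in the overlap cannot be assigned with certainty.

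The balance of the receptors within a library, which does not depend on how libraries are scaled, set Fb-Epn apart. The ratio of *Pdgfra* to *Pdgfrb* TPM was 1.14, 1.23 and 1.19 for Fb-Epn, 0.369, 0.352 and 0.377 for Fb-Par, and 0.310, 0.351 and 0.345 for Fb-Skn. Fb-Epn was the only type in which the alpha receptor transcript exceeded the beta receptor transcript, and the ranges of Fb-Par and Fb-Skn nearly touched. The mean log2 ratio in Fb-Epn was 1.82 above that of Fb-Skn, a 3.54-fold difference, and 1.69 above that of Fb-Par, a 3.24-fold difference. Fb-Par and Fb-Skn differed by 0.13, a 1.09-fold difference, which was 0.073 without Fb-Skn 1 and between 0.073 and 0.16 with each library left out. Each of these comparisons gave p = 0.1 in the exact two-sided permutation test, again the smallest possible value, so the test does not grade them. The summed receptor TPM was 278.6 ± 1.52 (SD, n = 3) for Fb-Epn, 509.8 ± 3.57 for Fb-Par and 320.2 ± 11.8 for Fb-Skn.

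**Figure D3:**
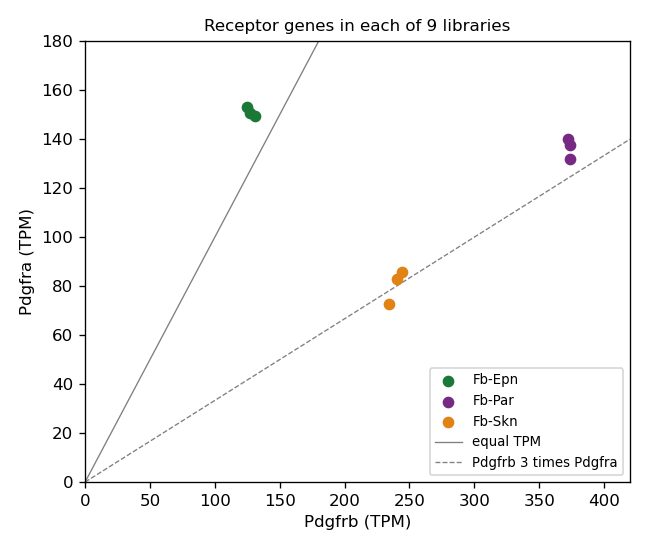
*Pdgfra* TPM (vertical axis) against *Pdgfrb* TPM (horizontal axis) in the 9 libraries, with a solid line where the values are equal and a dashed line where *Pdgfrb* is 3 times *Pdgfra*. The 3 Fb-Epn libraries lie above the solid line with ratios of 1.14 to 1.23, and the Fb-Par and Fb-Skn libraries lie near the dashed line with ratios of 0.310 to 0.377, at different total levels.

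Across the family, *Pdgfb* is set apart in both comparisons with Fb-Skn, where the filter on low counts fixed its call. The other 6 genes were all called in Fb-Epn against Fb-Skn, where 43.9% of all tested genes were called, with *Pdgfra* higher and 5 genes lower against backgrounds of 23.0% higher and 20.9% lower. All 6 were also called in Fb-Par against Fb-Skn (background 45.6%), with *Pdgfd*, *Pdgfra* and *Pdgfrb* higher (23.2%) and *Pdgfa*, *Pdgfc* and *Pdgfrl* lower (22.4%). In Fb-Epn against Fb-Par, 4 of all 7 were called (background 38.8%), with *Pdgfra* higher (20.2%) and *Pdgfd*, *Pdgfrb* and *Pdgfrl* lower (18.6%). DE genes made up 8.44%, 8.54% and 6.48% of the tested genes in these comparisons. Apart from *Pdgfb* against Fb-Skn, whose call the filter fixed, no member was a DE gene. The largest change of a member between Fb-Epn and Fb-Par was the -1.54 of *Pdgfrb*. With *Pdgfb* included, TPM ranges did not overlap for 7, 6 and 5 members, against 61.4%, 61.7% and 57.3% of tested genes. With normalization to library size only, the split of all called genes in Fb-Epn against Fb-Skn moved from 3052 higher and 2778 lower to 3715 and 2113, and in Fb-Par against Fb-Skn from 3077 and 2975 to 3737 and 2297. The median log2 fold change of the family, *Pdgfb* included, was -0.45, 0.49 and -0.18, against -0.0028, -0.0121 and -0.0002 over all tested genes.

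**Figure D4:**
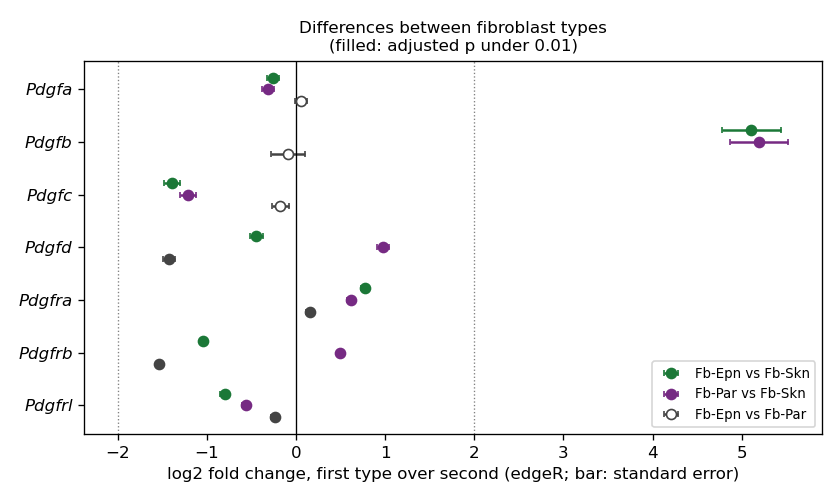
Log2 fold change from edgeR (horizontal axis, first type over second, bars for the standard error) of the 7 genes (vertical axis) in the 3 comparisons, with filled points for adjusted p under 0.01 and dotted lines at -2 and 2. *Pdgfb* alone passes a dotted line, at 5.11 and 5.20, where its filled points are no test result since the filter on low counts fixed them. *Pdgfd* and *Pdgfrb* lie on opposite sides of 0 in the comparisons of Fb-Epn and Fb-Par with Fb-Skn.

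Beyond the family, 70 genes that process PDGFs or act with or downstream of their receptors were followed in 4 lists, and all were tested. Of these, 50 were called in Fb-Epn against Fb-Skn (36 higher, 14 lower), 52 in Fb-Par against Fb-Skn (36 higher, 16 lower) and 45 in Fb-Epn against Fb-Par (28 higher, 17 lower). These counts correspond to 71.4%, 74.3% and 64.3% of the 70 genes, beside 43.9%, 45.6% and 38.8% of all tested genes. The lists were written by hand with earlier results of these data known. They were not matched to all tested genes for count level, on which a call depends, so these shares do not measure enrichment of the pathway. Both counts against Fb-Skn include *A2m*, whose call the filter on low counts fixed.

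**Figure D5:**
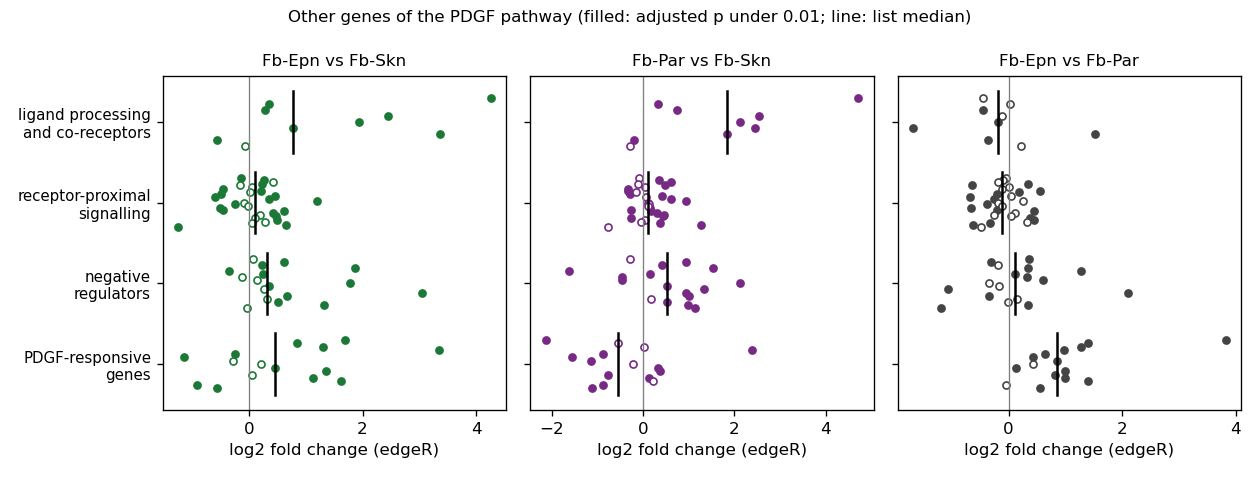
Log2 fold change from edgeR (horizontal axis) of the genes in 4 PDGF pathway lists (rows) in the 3 comparisons (panels), with filled points for adjusted p under 0.01 and a black line at the list median. The median of the PDGF-responsive list lies at 0.46, -0.56 and 0.86, and that of the receptor-proximal list stays between -0.11 and 0.11.

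Of 9 genes for ligand processing and co-receptors, 7 were higher and 1 lower in each nerve-derived type against Fb-Skn. Of all tested genes, 23.0% were higher and 20.9% lower in Fb-Epn, and 23.2% and 22.4% in Fb-Par. The list had a median log2 fold change of 0.78 in Fb-Epn and 1.83 in Fb-Par. *Plau*, the urokinase that can cleave latent PDGF-D, was 3.35 higher in Fb-Epn and 1.83 higher in Fb-Par than Fb-Skn on the log2 scale. *Plat*, the tissue plasminogen activator that cleaves latent PDGF-C, was 0.78 and 2.46 higher. These proteases therefore peaked in different nerve-derived types, with *Plau* 1.52 higher and *Plat* 1.68 lower in Fb-Epn than in Fb-Par on the log2 scale (-1.68 for *Plat*; adjusted p = 3.0e-09 and 2.1e-10, edgeR). *Nrp1* and *Nrp2*, neuropilins that act as co-receptors of several growth factors, rose by 2.44 and 1.93 in Fb-Epn and by 2.55 and 2.12 in Fb-Par against Fb-Skn. *A2m*, a protease inhibitor that binds PDGFs, rose by 4.25 and 4.71 on few reads, with 20 to 83 counts in each nerve-derived library and 0 to 5 in Fb-Skn. *A2m* passed the filter on low counts only through the nerve-derived types, so both values are a description with no test. It is still counted among the 7 higher genes and in the totals of called genes above. *Sparc*, a matrix protein that binds PDGF-B, was the gene that was lower in both (-0.56 and -0.20), and the Fb-Par value lost its call with limma on log2(TPM + 1) (-0.047, adjusted p = 0.38). *St14*, the gene of matriptase, was not called in any comparison. Between Fb-Epn and Fb-Par, 1 gene was higher (*Plau*) and 4 were lower (*Plat*, *Nrp2*, *Lrp1* and *Sparc*), beside 20.2% and 18.6% of all tested genes. The *Nrp2* call was lost with limma on log2(TPM + 1) (adjusted p = 0.020).

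Of 29 receptor-proximal signalling genes, 11 were higher, 8 lower and 10 not called in Fb-Epn against Fb-Skn, beside 23.0% higher and 20.9% lower of all tested genes. The split was 14 higher and 5 lower with library size only in edgeR and with limma on log2(TPM + 1). In Fb-Par against Fb-Skn, 13 were higher, 5 lower and 11 not called, beside 23.2% and 22.4%. None was a DE gene in the 3 comparisons, since no change passed 1.27 log2 units, and the list median was 0.11, 0.11 and -0.11. *Vav2*, a guanine nucleotide exchange factor, was higher in both nerve-derived types (0.65 and 1.27), as was *Pik3cb*, a catalytic subunit of PI3-kinase (1.21 and 0.95). *Nck2*, an adaptor, was lower in Fb-Epn (-0.59 against Fb-Skn, -0.67 against Fb-Par), and *Vav3* was lower in Fb-Epn against Fb-Skn (-1.24, adjusted p = 0.0097, edgeR) at 9 to 46 counts per library in those types. That *Vav3* call was lost with RLE normalization (adjusted p = 0.0102) and library size only (0.0148) in edgeR, and with limma on log2(TPM + 1) (-0.53, adjusted p = 0.030). Between Fb-Epn and Fb-Par, 6 were higher and 9 lower, beside 20.2% and 18.6% of all tested genes, so that the share of higher genes was near the background. *Map2k1*, the MAP kinase kinase MEK1, was 0.56 higher and *Stat3* 0.45 higher in Fb-Epn, and *Ptpn11*, the phosphatase SHP2 that binds both receptors, was lower (-0.66). The 5 genes lower in Fb-Par than in Fb-Skn, among them *Map2k1* (-0.34), *Mapk3* (-0.30) and *Hras* (-0.34), were not called with limma on log2(TPM + 1), in which the list had 15 higher and 0 lower.

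Of 17 negative regulators, 10 were higher and 1 lower in Fb-Epn against Fb-Skn, beside 23.0% and 20.9% of all tested genes. In Fb-Par against Fb-Skn, 12 were higher and 3 lower, beside 23.2% and 22.4%. The list medians were 0.33 and 0.53. *Dusp6*, a phosphatase of ERK induced by growth factor signalling, was higher in both (1.87 and 1.53), as was *Ptprj*, a receptor-type phosphatase that acts on the PDGF beta receptor (1.78 and 2.12). *Socs3*, an inhibitor of cytokine signalling, rose by 3.05 in Fb-Epn and 0.94 in Fb-Par against Fb-Skn. *Grb14*, an adaptor that inhibits receptor kinases, was lower in both (-0.34 and -1.62), and its Fb-Epn call was lost with limma on log2(TPM + 1). *Ptpn1* and *Ptpn2* were the other genes lower in Fb-Par (-0.46 and -0.47), and the *Ptpn2* call was lost with library size only (adjusted p = 0.023, edgeR) and with limma on log2(TPM + 1) (-0.30, adjusted p = 0.078). Between Fb-Epn and Fb-Par, 8 were higher and 4 lower, beside 20.2% and 18.6% of all tested genes. Among the higher were *Socs3* (2.11) and *Grb14* (1.28). The lower were *Spry4* (-1.18), *Sh2b3* (-1.07), *Spred1* (-0.34) and *Cbl* (-0.31). The *Spred1* call was lost with limma on log2(TPM + 1) (adjusted p = 0.014) and the *Cbl* call with upper-quartile normalization (adjusted p = 0.012, edgeR).

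The 15 PDGF-responsive genes are early targets that also respond to serum and other factors. Between Fb-Epn and Fb-Par, 13 were higher in Fb-Epn and 0 lower in edgeR, beside 20.2% and 18.6% of all tested genes. There were 0 lower also at an unadjusted p under 0.05 and in DESeq2, and the median was 0.86. In edgeR, 12 were higher with RLE normalization and with library size only, where *Id3* lost its call (adjusted p = 0.011 and 0.015). With limma on log2(TPM + 1), 11 were higher, and *Id3* (adjusted p = 0.091) and *Fosb* (adjusted p = 0.023) lost their calls. In these settings 0 were lower. *Ccl2*, a chemokine, had 737.2 ± 37.99 TPM (SD, n = 3) for Fb-Epn, 52.6 ± 4.01 for Fb-Par and 207.6 ± 3.90 for Fb-Skn, a log2 fold change of 3.82 between Fb-Epn and Fb-Par (adjusted p = 6.6e-16, edgeR). *Cxcl1* and *Myc* were each 1.41 higher, and *Odc1* (-0.038) and *Hmga1* (0.44) were not called. Against Fb-Skn the list was mixed, with 8 higher and 4 lower in Fb-Epn (8 and 2 with limma on log2(TPM + 1)) and 4 higher and 7 lower in Fb-Par. The shares of all tested genes were 23.0% higher and 20.9% lower in Fb-Epn, and 23.2% and 22.4% in Fb-Par. *Egr2*, a zinc finger factor of the early response, was higher in both (3.35 and 2.38), *Ccl2* rose by 1.69 in Fb-Epn and fell by 2.13 in Fb-Par, and *Fosb* was lower in both (-1.13 and -1.56). *Odc1* was lower in both as well (-0.91 and -0.88). The macrophage markers given above were higher in Fb-Epn than Fb-Par, and their part in the direction of this list was not tested.

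The genes whose log2 level was most like that of each member over the 9 libraries were listed as a description. The 9 points fall into 3 types, so r mainly reflects the type means. *Pdgfrb* was closest to *Filip1l* (Pearson's r = 0.999), *Gpc4* (0.998) and the mural marker *Mcam* (0.997). *Pdgfd*, also highest in Fb-Par, was closest to *Icam1* (0.998), *Cyp7b1* (0.997) and *Medag* (0.995). *Pdgfb* was closest to *Zbtb38* (0.996), the Wnt receptor gene *Fzd4* (0.995) and the matrix protease gene *Adamts5* (0.994), and *Pdgfra* to *Arid5b* (0.994), *Plekha7* (0.994) and *Lgals9* (0.993). *Pdgfc* was closest to *Gbp5* (0.996), *Tanc1* (0.995) and *Minar2* (0.994), and *Pdgfrl* to *Selenos* (0.995), *Scp2* (0.995) and *Cercam* (0.994). *Pdgfa*, the member with the smallest differences, was closest to *Yrdc* (0.977), *Edf1* (0.974) and *Mydgf* (0.971), and only 15 genes had an r above 0.95 with it, against 222 to 461 for the other members.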

How the data were processed

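RNA of 9 samples (3 per type) was sequenced as directional poly(A) libraries with paired ends of 150 bp. The authors trimmed reads and aligned them to rn6, and the submitters' processing notes name FastQC 0.11.7, Trimmomatic 0.38, HISAT2 2.1.0 and featureCounts 1.6.3. The authors deposited raw counts per gene, a TPM table and an FPKM table. The TPM table served for levels and the FPKM table only for an alternative. Types and replicate numbers came from the sample labels. Counts were tested with edgeR 4.0.16 (R 4.3.3; TMM, default expression filter, quasi-likelihood F test) in 1 model of 9 libraries, with Benjamini-Hochberg adjustment over 13273 genes in each comparison. limma 3.58.1 and DESeq2 1.42.0 were alternatives. The edgeR fit was first tested on simulated counts with known changes. No library was a duplicate, since counts of replicates differed by more than sampling noise (chi-square per degree of freedom 3.18 to 5.45).

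The members and lists were chosen with earlier results of these data known. Named genes were all members, the called list genes with the largest change (up to 2 per direction, list and comparison), genes behind small counts, the 3 genes most like each member by Pearson's r of log2 CPM, and overlapping genes. *Myc* and the single fibroblast, macrophage, mural and endothelial markers fall outside that rule and were chosen after their values were seen. *Col1a2* and *Pecam1* were not analysed here. Some list genes enter the counts and are otherwise not reported here. Promoters came from RefSeq (GRCr8), and no coordinates were converted.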

Additional observations from a re-analysis of the deposited data

How the results depend on the processing

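Of 417 values of a member under an alternative (normalization, test, pseudocount, filter, libraries used), 386 kept their direction and their side of the threshold, and 15 of the 21 member comparisons did so under every alternative run. Both figures include *Pdgfb* against Fb-Skn, whose call the filter fixed. They also include fits that left out a library of the type not compared, so the share is not a measure of robustness. The lost calls were those of *Pdgfa* in both nerve-derived types against Fb-Skn, of *Pdgfd* in Fb-Epn against Fb-Skn and of *Pdgfra* in Fb-Epn against Fb-Par. Against Fb-Skn, *Pdgfa* gave adjusted p-values up to 0.21 in Fb-Epn and 0.082 in Fb-Par (limma on log2(TPM + 0.1)), and with library size only (edgeR) 0.049 and 0.013. *Pdgfra* in Fb-Epn against Fb-Par reached 0.12 with limma on log2(TPM + 0.1), and 0.011 with RLE normalization in edgeR. Directions turned only for differences that were not called. *Pdgfa* in Fb-Epn against Fb-Par was -0.037 with limma on log2(FPKM + 1) and ranged from -0.0044 to 0.11 with each library left out, the negative value without Fb-Par 2. *Pdgfb* in the same comparison ranged from -0.20 to 0.063, above 0 without Fb-Epn 1 (0.012) or Fb-Par 1. *Pdgfb* could not be fitted with at least 10 counts in every library, and its log2 fold change against Fb-Skn fell to 1.98 in Fb-Epn and 2.09 in Fb-Par on log2(FPKM + 1), where the pseudocount compresses low levels. Over all genes, that same count filter left 319, 373 and 344 DE genes of 1120, 1133 and 860.

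The replicate numbers were not taken as pairs, since the deviations of libraries with equal numbers correlated from -0.0804 to 0.0198 over 9 pairs, and the model with the replicate block changed no member call but that of *Pdgfra* in Fb-Epn against Fb-Par (0.16, adjusted p = 0.0104, edgeR). Depth limits *Pdgfb* in Fb-Skn, where 6 reads in all were counted.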
